A study of Homo sapiens with 2 samples.

Results

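The 186 intervals described here lay beside genes but outside the promoters and CpG islands of the deposited annotation. They came from chromatin immunoprecipitation with sequencing (ChIP-seq) of sGCβ1, the haem-binding beta-1 subunit of soluble guanylate cyclase, and made up 4.46% of the 4169 intervals in the authors' list. An interval belonged to this class when the list assigned it at least 1 gene, placed its summit upstream or downstream of every assigned gene, counted 0 promoters and 0 CpG islands, and gave a height below 30. Height stands for the highest fragment density that the authors gave for the interval. The members were chosen by these positions, counts and heights, all from the same library, so those values are descriptions and carry no test. Of the 4169 intervals, 3033 had an assigned gene and 1019 of those had their summit inside none of them. A promoter count of 0 left 255 and a CpG island count of 0 left 225, of which 39 reached the height limit and were set aside.

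The cells were U-87 MG, an established human line from a malignant glioma, made to overexpress sGCβ1 and left untreated. The study has 2 samples, a library of DNA recovered with an anti-sGCβ1 antibody and an input library, both from the overexpressing cells. Every value below comes from the ChIP library, and input signal was not analysed here. With 1 library there is no replicate error and no test, and the number of reads behind the intervals is unknown. Percentages carry exact Clopper-Pearson 95% intervals, which cover counting error only.

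Soluble guanylate cyclase is the receptor of nitric oxide and makes cyclic GMP, mainly in the cytosol. Chromatin beside genes holds enhancers, insulators and transcripts that run past gene ends. Many enhancers carry sites for AP-1, the dimers of FOS and JUN proteins that switch on genes after growth factor and stress signals. Another short site, the E-box CACGTG, is read by basic helix-loop-helix zipper factors such as USF1, MYC and TFE3.

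The sequences that follow are shown because they hold the motifs whose share at the summits was 2 or more times that in windows 600 bp away. All are 60 bases of GRCh37, the same build as hg19, read on the plus strand with the match in capitals. An AP-1 match, searched as TGANTCA, is present in the first 3, from the 3 tallest members that hold one within 200 bp around the summit.
tcag7.1275, upstream interval, chr7:155744510-155744569: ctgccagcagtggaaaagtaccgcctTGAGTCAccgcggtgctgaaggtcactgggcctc
ZC3HC1, downstream interval, chr7:129650017-129650076: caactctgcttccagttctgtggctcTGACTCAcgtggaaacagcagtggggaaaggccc
ADARB1, downstream interval, chr21:46648405-46648464: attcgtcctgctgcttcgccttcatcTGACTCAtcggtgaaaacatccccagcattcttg

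The match centres lay 5 bp before, 19 bp after and 18 bp after the deposited summits. In the ZC3HC1 interval the AP-1 match runs into an E-box, which shares the last bases of the match. ZC3HC1 encodes a protein of the nuclear pore basket, and ADARB1 an enzyme that edits adenosine in RNA. The next 2 sequences carry the E-box, searched as CACGTG, in the other tallest members that hold one.
GPRASP1, downstream interval, chrX:101914806-101914865: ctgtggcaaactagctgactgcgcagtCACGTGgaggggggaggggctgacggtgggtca
KCNS3, upstream interval, chr2:18050507-18050566: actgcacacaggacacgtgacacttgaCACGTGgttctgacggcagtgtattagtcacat

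The KCNS3 window holds the E-box a second time, printed in lower case before the marked copy. KCNS3 encodes a modifier subunit of voltage-gated potassium channels, and GPRASP1 a protein that sorts receptors to lysosomes. The CREB core TGACGT, which CREB and ATF proteins read, and the ETS core CCGGAAG also reached 2 times the share of the flanks, but only 5 and 3 members held them. An example of each is given, from the PTGS1 interval, beside the gene of cyclooxygenase-1, and from the ZC3HC1 interval. The PTGS1 interval was the 1 member with a CREB core as well as an AP-1 match, which stands in lower case near the end of its window.
PTGS1, CREB core, chr9:125164789-125164848: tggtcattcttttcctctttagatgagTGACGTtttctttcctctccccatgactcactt
ZC3HC1, ETS core, chr7:129650066-129650125: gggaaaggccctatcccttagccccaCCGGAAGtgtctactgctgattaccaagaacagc

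Most members lay behind their genes. Of the 186 intervals, 141 (75.8%, 95% interval 69.0 to 81.8) were downstream of every assigned gene, 36 (19.4%, 13.9 to 25.8) upstream only, and 9 (4.84%, 2.24 to 8.99) upstream of 1 gene and downstream of another. A single gene was assigned to 153 members, 2 genes to 30 and 3 genes to 3. This split follows in part from the rule. The span of distances open upstream was narrower than that downstream, so the split is not read as a preference for either side. Across the whole list no upstream entry with a promoter count of 0 had its summit nearer than -8036 bp, so nearer upstream intervals had already been counted as promoter intervals.

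The room left to upstream members was therefore narrow. Their 46 gene assignments ran from -11332 to -8036 bp, with a median of -9374.5 bp, and 24 of the 46 lay between 9000 and 10000 bp before the start. Downstream assignments numbered 176. Of these, 156 matched a current gene in GENCODE version 44, and 131 had the summit beyond its annotated end, by 158 to 10548 bp with a median of 5554 bp. They were spread over the stretch behind the gene, with 28 in the first 2000 bp and 19, 27, 24 and 27 in the following steps of 2000 bp. A further 6 lay beyond 10000 bp. None lay further than 10548 bp past the end, so the span behind the gene was limited as well. Upstream, the steps of 1000 bp from 8000 to 11000 bp before the start held 9, 24 and 12 assignments.

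**Figure D1:**
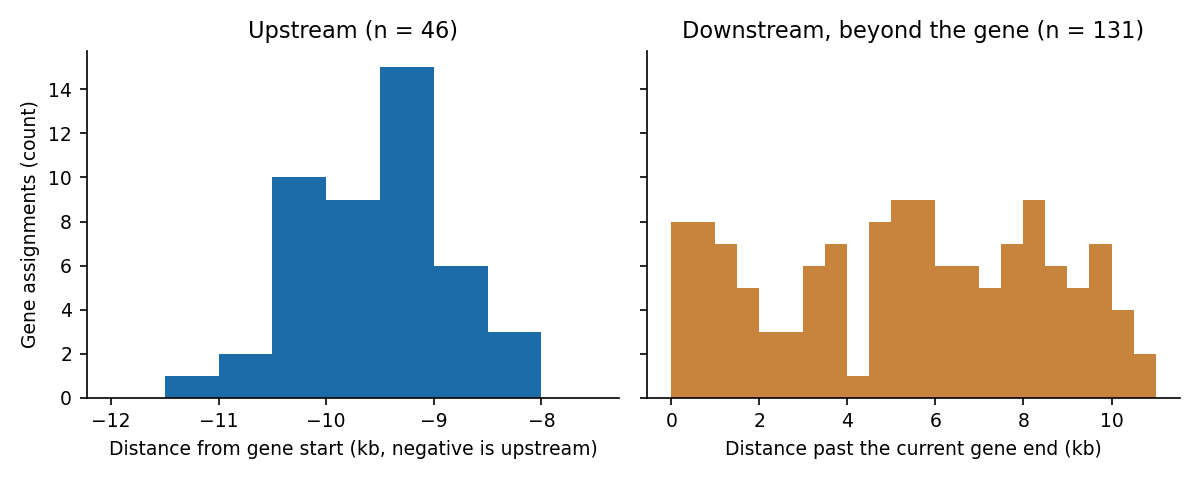
Histograms of the distance (kb) between summit and gene for the gene assignments of the 186 flanking intervals, in bins of 0.5 kb; the vertical axis counts assignments. The 46 upstream assignments sit between -11332 and -8036 bp, and the 131 downstream assignments beyond a current gene end cover 158 to 10548 bp with no concentration at the end itself.

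Heights were low by the rule, and within that limit they were close to those of the other low classes. The median height was 14 with an interquartile range of 12 to 16 and a range of 8 to 29. Low intragenic intervals, 1029 in number, had a median of 13, and 957 low intervals with no assigned gene had a median of 14. Both had an interquartile range of 12 to 16. Heights of 20 or more were reached by 23 flanking intervals (12.4%), compared with 7.68% of the intragenic class, 7.11% of the class with no gene and 12.1% of 347 low promoter intervals without CpG island. The median length was 1278.5 bp, the median MACS score (minus 10 times log10 of p) was 88.9, and the lowest score was 70.2. Across the 186 intervals height and score had a Spearman rho of 0.52, and height and GC content one of 0.09. These intervals share 1 library, and both values describe it only.

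**Figure D2:**
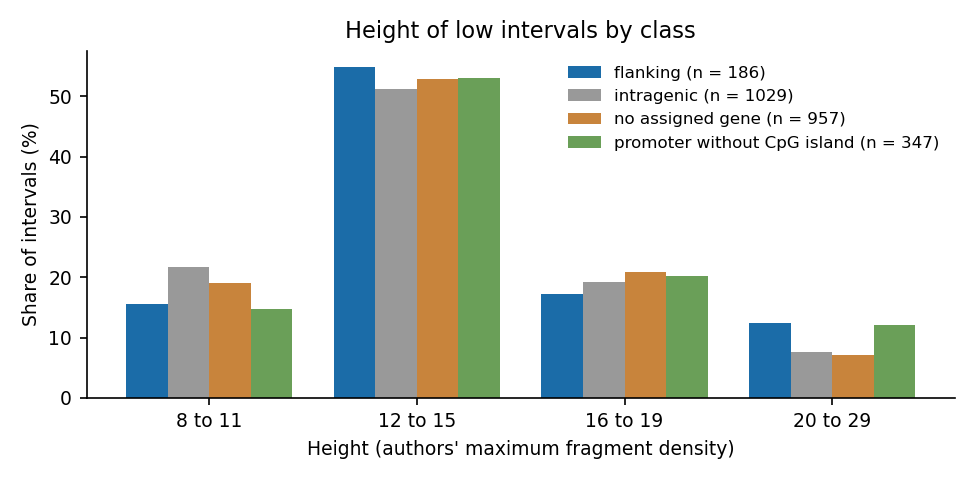
Share of intervals (%) in 4 ranges of height (authors' maximum fragment density) for the flanking class and 3 other classes with height under 30 and no CpG island; n is given in the legend. Heights of 12 to 15 were the commonest range in every class, with 54.8% of flanking intervals.

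The tallest members flanked genes of unlike function. At 29, the tallest lay downstream of CD300LB, a receptor gene of myeloid cells, on chromosome 17 from 72509848 to 72511759, and had a score of 341. Next came intervals of height 27 behind CACNG6, a calcium channel subunit gene (chromosome 19, 54523028 to 54524448), and behind BPGM, the gene of bisphosphoglycerate mutase (chromosome 7, 134369382 to 134370937). A height of 26 was found behind PRKCH, the gene of protein kinase C eta. Heights of 25 were found behind MIR129-1, a microRNA gene, and between the annotated transcripts LOC388692 and RP11-403I13.9 on chromosome 1. PTGFRN, BCAS1, GPRASP1 and tcag7.1275 followed with 24.

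Just outside the limit lay intervals behind HMGN4, a nucleosome-binding protein gene, with a height of 31, behind F2R, the thrombin receptor gene, with 33, and behind GPX5 with 37. The highest score in the class, 346, belonged to an interval of height 16 on chromosome 7 from 130624199 to 130630227. It was assigned to FLJ43663 and was the longest member, at 6028 bp. In the current annotation its summit lay in an exon of LINC-PINT, a long noncoding RNA gene, 167 bp from a start of that gene.

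Newer annotation placed part of these intervals inside genes. Summits of 73 members (39.2%, 32.2 to 46.7) lay inside a gene of any biotype in GENCODE version 44, 29 of them (15.6% of the 186) in a protein-coding gene and 44 (23.7%) in a lncRNA gene. Of the 73, 1 lay in genes of both kinds and 1 in a gene of neither kind. Among low intervals with no assigned gene the corresponding share was 38.3% (35.3 to 41.5). In 103 members (55.4%, 47.9 to 62.7) the summit was neither in a gene nor within 1000 bp of a transcript start. The name of the class therefore holds for the deposited annotation and only in part for the current one.

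Transcript starts were near 21 members (11.3%, 7.13 to 16.7), at most 1000 bp away, and 17 of these starts belonged to lncRNAs. The only protein-coding start was that of CD22, a B cell receptor gene, 30 bp from the summit of an interval of height 14 that also lay behind MAG, a myelin glycoprotein gene. At MTX1 the summit was 1 bp from a start of GBAP1, the glucocerebrosidase pseudogene, with a height of 19. At TSPAN2 it was 71 bp from a start of LINC01765, with a height of 20. Members whose motif sequences are shown above were among them. The summit lay 31 bp from a lncRNA start at GPRASP1, 180 bp at tcag7.1275 and 401 bp at PTGS1. The share near a start was 5.85% (4.45 to 7.53) in the class with no assigned gene, 13.4% in the intragenic class and 39.2% in the promoter class.

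For 25 of the 156 matched downstream assignments the summit fell inside the current extent of the same gene. Among them were BCAS1 (height 24), an oligodendrocyte gene, the chromatin remodeller gene DPF3 (20) and the DNA repair gene RAD51L1, now RAD51B (20). Both flanking intervals assigned to HNRNPA2B1, an RNA-binding protein gene, were also of this kind. Of 42 matched upstream assignments, 3 had the summit inside the same gene. Unmatched assignments were not counted.

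NEAT1 held most members of any gene. NEAT1 is a nuclear lncRNA that forms the scaffold of paraspeckles and is made in a short and a long form from 1 start. In the deposited list 8 intervals were assigned to it, and 4 of them were flanking intervals, downstream of the deposited gene model. Their summits lay 3987, 5827, 7251 and 8867 bp from the start, with heights of 13, 9, 9 and 12 and scores of 173, 72.6, 72.1 and 70.2. The first of these was the tallest and the only one with a score far above the minimum. All 4 summits were inside the current NEAT1 gene, in its exon, which extends to 65213011 on chromosome 11.

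The other 4 intervals of NEAT1 were counted as promoter intervals of at least 1 transcript. Their summits were at -3421, 435, 1683 and 12995 bp, with heights of 20, 14, 15 and 14. Bases around the first 3 flanking summits are shown because they fall in the body of this RNA, and the third holds the B box of RNA polymerase III genes, searched as GGTTCGA, any 2 bases and CC, and marked in capitals. It was the only member with a B box in the 200 bp window, 1 of 186 (0.538%). The B box was found in 0 of 372 flank windows and 0.103% of promoters. Among the other low classes it was in 7 of 957 intervals with no assigned gene (0.731%), 1 of 1029 intragenic intervals and 0 of 347 promoter intervals. The B box is therefore not particular to this class.
NEAT1 at 3987 bp, chr11:65194226-65194285: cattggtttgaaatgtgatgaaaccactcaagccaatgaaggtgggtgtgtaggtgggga
NEAT1 at 5827 bp, chr11:65196066-65196125: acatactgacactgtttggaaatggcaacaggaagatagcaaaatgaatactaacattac
NEAT1 at 7251 bp, chr11:65197490-65197549: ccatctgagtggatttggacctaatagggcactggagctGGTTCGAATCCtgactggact

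The GC content of these 3 stretches was 46.7, 35.0 and 51.7%. None of the 4 windows of 200 bp around the flanking summits carried an AP-1 match. Past the end of NEAT1, a further member of height 10 lay 4703 bp from the start of MIR612, a microRNA gene within the NEAT1 locus.

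**Figure D3:**
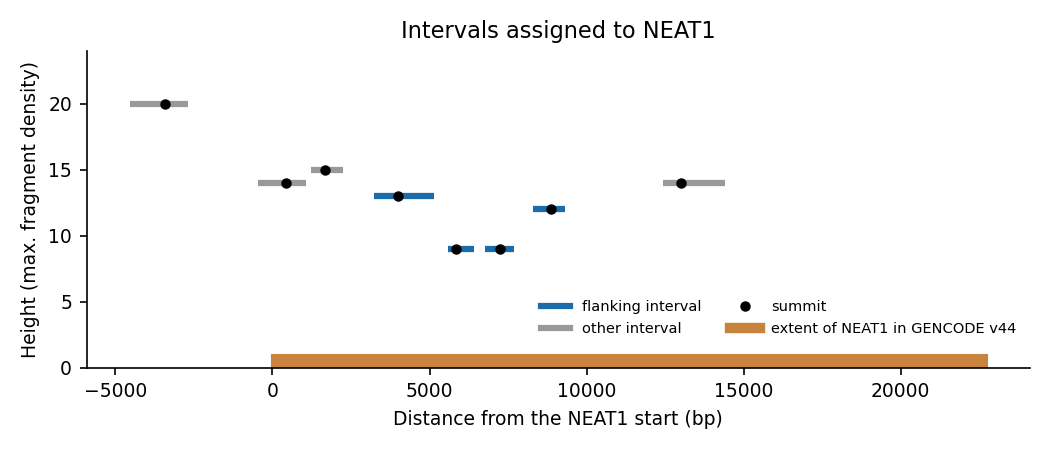
Intervals assigned to NEAT1, as horizontal bars over their length at their height (authors' maximum fragment density), by distance (bp) from the gene start; dots are summits and the bar at the bottom is the gene in GENCODE version 44. The 4 flanking intervals, with heights of 9 to 13, follow each other between 3987 and 8867 bp, inside the current gene.

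Altogether 14 symbols had 2 or more flanking intervals. The genes named in this and the next paragraph were in part chosen after their values were seen. Past the end of BDKRB1, the gene of bradykinin receptor B1, a pair with heights of 20 and 14 lay 2416 bp apart and was also assigned to LOC100130815. QKI, an RNA-binding protein gene, was followed by a pair with heights of 13 and 15. ZNF608 had 13 and 17, and the pair assigned to both NFE2L3 and HNRNPA2B1 had 12 and 12 at 1168 bp from each other. PADI2, a peptidylarginine deiminase gene, had one on either side, of 15 at -9140 bp and of 13 at 55932 bp. The matricellular gene WISP2, now CCN5, likewise had 13 at -11332 bp and 16 at 18435 bp, and its relative WISP1, now CCN4, had 11 at -8640 bp.

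MicroRNA genes stood among the assigned genes as well. MIR21, whose RNA is abundant in gliomas, lies at the end of TMEM49, now VMP1, and 5 intervals were assigned to it. The flanking one had a height of 18 and a score of 184 at 4701 bp from the MIR21 start, on chromosome 17 from 57922740 to 57924252. The other 4, all counted as promoter intervals, had heights of 13, 15, 12 and 26, so the flanking interval was lower than the tallest of them, 2752 bp away. MIR365-2 had a flanking interval of height 13 at 5458 bp and MIR129-1 the one of 25 at 9227 bp.

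Part of the members had other intervals of the list at the same genes. These shares were not computed for the other classes or for all intervals, so whether they are particular to this class is not known. Of the 186, 76 (40.9%, 33.7 to 48.3) had at least 1 further interval at an assigned gene, and 32 (17.2%, 12.1 to 23.4) had one within 1000 bp of the deposited start of such a gene. A gene that also carried a height of 30 or more was flanked by 5 members (2.69%). These were the only such genes. C14orf153, now COA8, a gene for cytochrome c oxidase assembly, had 192 at its start and 17 in the flanking interval, and NAA30, an acetyltransferase gene, had 91 and 12. NARF had 131, not at its start but 36548 bp from it, and 12. MFSD1, a lysosomal transporter gene, had 73 and 14, and PRKAR1B, a regulatory subunit gene of protein kinase A, had 49 at 1089 bp from the start and 17.

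A neighbouring summit within 10000 bp was present for 35 members (18.8%, 13.5 to 25.2). The share was 12.8% (10.8 to 15.03) for intragenic intervals, 13.9% (11.8 to 16.3) for those with no assigned gene and 28.0% (23.3 to 33.0) for low promoter intervals. In 16 of the 35 the nearest neighbour was itself a flanking interval. Of the rest, 8 neighbours were low promoter intervals without CpG island, 3 had no assigned gene, 1 was intragenic, and 7 were tall or overlapped a CpG island.

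AP-1 matches were concentrated at the summits. A match was present within the 200 bp around the summit in 51 of 186 members (27.4%, 21.1 to 34.4), compared with 36 of 372 windows of the same length centred 600 bp to either side (9.68%, 6.87 to 13.1), a ratio of 2.83. The 2 intervals did not overlap, but each member gave 2 flank windows, which were counted as independent, so this is no test. Among all 35116 RefSeq promoters, taken as 200 bases before the start, 5.38% held a match. In steps of 100 bp, 38 matches lay in the step before the summit and 24 in the step after it, against 4 to 11 per step more than 500 bp before it and 4 to 13 per step more than 500 bp after it, on the plus strand. Deposited summits lie on a grid for the most part, with 173 of 186 at a multiple of 16 bp, so finer positions than this are not resolved.

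The AP-1 shares of the other classes away from promoters were at least as high. They were 31.3% (28.5 to 34.2) in intragenic intervals and 34.2% (31.2 to 37.3) in those with no assigned gene, and 22.2% (17.9 to 26.9) in low promoter intervals; no test of these differences can be made with 1 library. The flanks of the 4 classes held 8.07% to 9.68%. Within the flanking class the share was 13 of 36 (36.1%, 20.8 to 53.8) for upstream members and 36 of 141 (25.5%, 18.6 to 33.6) for downstream members, whose intervals overlap. Members with a match had a median height of 14, the same as those without, and a median score of 82.9 against 90.4. A total of 9 members held 2 or more matches, among them the one of height 17 behind TRPC1, a cation channel gene, and PCOLCE2, a collagen-processing gene, which held 3.

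**Figure D4:**
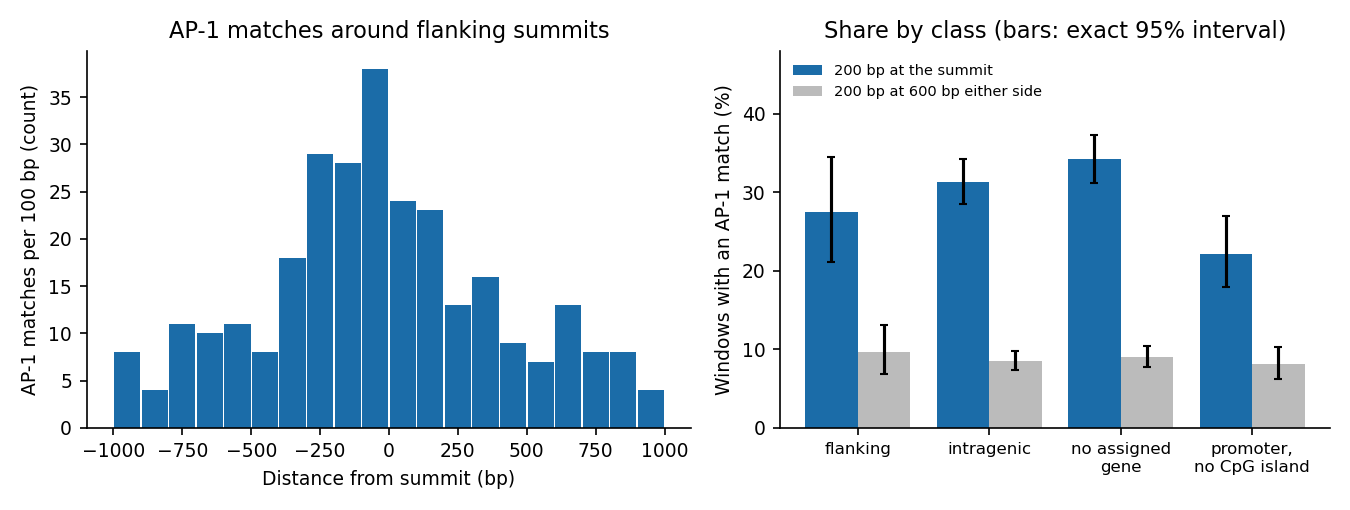
Left, AP-1 matches (count per 100 bp) by distance (bp) from the summits of the 186 flanking intervals. Right, share (%) of 200 bp windows with a match at the summit and 600 bp to either side, by class, with exact 95% intervals; in the flanking class the shares are 27.4% and 9.68%.

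Other motifs were less frequent. The E-box was present in 12 members (6.45%, 3.38 to 10.998), against 3.23% (1.68 to 5.57) of their flank windows and 5.49% of promoters; these intervals overlap. In the 113 members outside current genes the E-box share was 3.54%, close to that of all members' flanks, and with a window of 100 bp it was 3.76% of all members. The E-box share was 2.43% (1.58 to 3.57) in intragenic intervals, 2.93% (1.95 to 4.20) in those with no assigned gene and 4.32% (2.44 to 7.03) in low promoter intervals. Members with an E-box included those beside NES, the gene of the progenitor filament nestin, and BCAN, a brain matrix gene (height 15 for this shared interval), the upstream WISP2 interval (13) and CDC42EP3 (11). In total 3 members held an AP-1 match as well as an E-box. The CREB core was found in 2.69% (0.878 to 6.16) and the ETS core in 1.61% (0.334 to 4.64), against 1.34% and 0.538% of flanks and 6.32% and 7.71% of promoters. CREB core and E-box matches can share bases with AP-1 matches and with each other.

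Sites of TEAD proteins (GGAATG), which act with YAP, were in 10.2% of summit windows, 12.4% of flanks and 9.51% of promoters. NF-Y boxes (CCAAT) were in 24.2%, 23.1% and 28.0%. GC boxes (GGGCGG), read by SP and KLF proteins, were in 4.30% of summit windows, 4.30% of flanks and 40.1% of promoters. The CTCF core, searched as CCAC, any base, AGG, any base, GGC and any 2 bases, was found in 0 of 186 summit windows, with an exact upper bound of 1.96%, and in 0.208% of promoters. The NRF1 palindrome, searched as GCGC, any base and TGCGC, was also found in 0 of 186, against 4.78% of promoters. Letters missing from a window say nothing of the factor. GC content had a median of 48.5% (interquartile range 42.0 to 54.0) at the summits and 47.0% in their flanks. At the summits it was 44.5% in intragenic intervals, 45.0% in those with no assigned gene and 49.0% in low promoter intervals, compared with 59.0% over all promoters. The flank medians of these classes, in the same order, were 42.0%, 42.0% and 46.0%. The flanks of the flanking class were thus also the highest in GC. A CpG was missing from 10.2% of summit windows and 18.3% of flank windows.

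Chromosome 1 held 18 members, chromosome 7 held 17, chromosome 11 held 16 and chromosome 19 held 15. Chromosome 19, which is rich in genes, had 8.06% of the class (4.58 to 13.0) compared with 3.93% of all intervals, 1.65% of the intragenic class and 0.94% of the class with no assigned gene. Chromosome 17 had 6.99% (3.77 to 11.7) against 4.10% of all intervals. Chromosomes 4 and X held 1 member each, behind HOPX, a homeodomain protein gene (height 11), and behind GPRASP1.

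**Figure D5:**
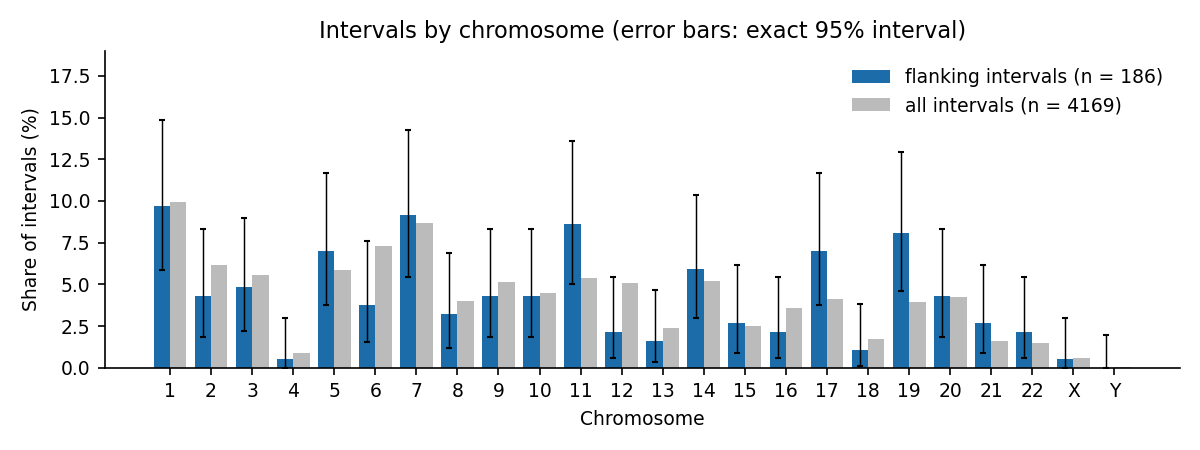
Share (%) of the 186 flanking intervals, with exact 95% intervals, and of all 4169 intervals on each chromosome. Chromosome 19 holds 8.06% of flanking intervals against 3.93% of all, while chromosomes 4 and X hold 1 flanking interval each.

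The 186 members named 206 symbols, of which 185 matched the current annotation and 167 were protein-coding. They were 5.60% of the 3677 symbols in the whole list, with a median of 14 for the tallest flanking interval of each. Among 12 gene lists, 18 of the 206 symbols were listed. These lists are not complete, and their counts hold for the listed symbols only. The list of 53 cytokine, chemokine and growth factor genes had 7 symbols with an interval of any class, and 3 of the 7 had a flanking one. CCL4 and TNFSF11, each with a flanking interval of height 15, were not on it. HBEGF, a growth factor of the EGF family, had a height of 14, CSF3, the granulocyte colony factor gene, also 14, and the hormone gene STC1 had 11. The CSF3 interval was also assigned to MED24 and SNORD124, and its summit lay 3490 bp from the CSF3 start.

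Stress and redox genes had 3 of 11, with a median height of 15. GCLC, the rate-limiting enzyme of glutathione synthesis, had 19, and DNAJB1, a chaperone gene, had 14. In the lysosome and lipid list, the cathepsin gene CTSB had 12 and the prosaposin gene PSAP also 12. Matrix, integrin and adhesion genes had 2 of 18, ANXA1 with 13 at 28131 bp and COL1A1, a collagen chain gene, with 13 at -9128 bp. The latter summit also lay in an exon of an unnamed lncRNA.

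TGF-beta and Hippo genes had 2 of 15, with ID1, a helix-loop-helix inhibitor gene, at 13 and -9556 bp, and AMOTL1, whose protein binds YAP, at 11. Progenitor and mesenchymal factors had 2 of 14, NES with 15 and the circadian repressor gene BHLHE40 with 12. GADD45A, a growth arrest gene induced by DNA damage, was the 1 of 11 in the list of p53 and cell cycle genes, with a height of 15 at 543 bp past its current end. SPRY2, a gene of a receptor tyrosine kinase feedback inhibitor, was the 1 of 17 in the glioma driver list, with 13. CDC42EP3 was the 1 of 13 cytoskeleton genes. For AP-1 family genes (0 of 6), canonical histone genes (0 of 34) and NO-cGMP signalling genes (0 of 3) no flanking interval was listed. The share over all symbols was 5.60%, so 0 among so few genes says nothing about the pathway of sGCβ1.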

How the data were processed

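Per the series' design text, the authors aligned 75 nt reads (NextSeq 500) to hg19 using BWA, kept unique alignments with at most 2 mismatches, and called intervals using MACS. Tool versions and any MACS control: not given in the sources used here. Per the file headers, the deposited list holds peak and average signal (maximum and mean fragment density) and a MACS score (10 times the negative log10 p-value). These are the authors' values, used only to describe and rank intervals. Values were computed with pysam 0.24.0, pandas 2.3.3 and scipy 1.17.1 on GRCh37, the same build, with GENCODE version 44 mapped to it. Motifs and GC content were taken over 200 bp around the deposited summit on both strands, with flank windows centred 600 bp away. Promoter sequences were RefSeq (GRCh38.p14), used for motif shares only. Symbols were matched through RefSeq synonyms, with the start within 2000 bp of the deposited distance. The rule, motif and GC code was tested on simulated data.

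Members, motifs and gene lists were chosen with earlier results of these data known. Named are genes of the 10 tallest members, the 5 genes with most members, up to 4 per list, intervals at the height limit, the 3 tallest holders of motifs raised 2 times or more, and genes with a height of 30 or more as well; others are named after their values were seen. Symbols in lists were compared as deposited. Alternatives were the upper part by score, lower heights, autosomes, other windows and distances, and nearest or protein-coding genes. Some values of the class are not reported here.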

Additional observations from a re-analysis of the deposited data

How the results depend on the processing

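Of 59 alternative values, 49 stayed within the main value's 95% interval, and 10 did not. For the AP-1 ratio the range was within 1.5 times the main value instead. Of the 49, 11 came from autosomes only, which left out just the member on chromosome X and kept 185. Another 11 came from the height limit of 20, which kept 163 members. Both settings reuse most of the same members, so these values could hardly move. The count of 49 is therefore not a measure of robustness. Shares near a transcript start were 37.6% with a window of 5000 bp and 0.538% with protein-coding genes only, and the share inside a gene was then 15.6%. The AP-1 share was 19.4% in the members at or above the median score (cause not tested), 14.5% with a window of 100 bp and 44.1% with 400 bp, as shorter and longer windows hold fewer and more positions. Its ratio to the flanks stayed between 2 and 3.52. A neighbour was present for 10.8% at 5000 bp and 48.4% at 50000 bp. In the members with the higher scores the median height was 15 and the median length 1528 bp, which move with score. Members outside current genes and flanks at 1000 bp were added after the data were seen. No paired analysis was possible because there is 1 ChIP library. The number of reads is not known, which leaves the effect of depth on this list unmeasured.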
